A study of Mus musculus with 23 samples.

Results

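The T cell receptor beta (TRB) clonotypes described here carry a short CDR3, the loop that complementarity-determining region 3 forms, of 12 amino acids or fewer. A clonotype is a distinct combination of TRBV segment, TRBJ segment and CDR3 amino acid sequence, and the CDR3 is counted as deposited, with its first cysteine and its last residue. Members were all TRB clonotypes whose CDR3 was fully resolved, started with C and had 12 residues or fewer. They numbered 5036 of the 35068 TRB clonotypes analysed (14.4%), out of 64710 TRA and TRB entries in the whole table. The other 30032 TRB clonotypes are called longer.

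The CDR3 of the beta chain is made where a V, a D and a J segment are joined. Its first residues come from the V segment, its last from the J segment, and its middle from the D segment and from nucleotides that are trimmed or added at the joints. The middle lies over the peptide when the receptor meets an MHC molecule. Receptors with little added at the joints can be made repeatedly by independent rearrangements, so they are often shared between individuals.

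T cell receptor transcripts were sequenced from a syngeneic mouse melanoma model, derived from the Nras Q61R line NIL after ultraviolet exposure. The groups were trametinib plus BGB-283 (combination), trametinib alone, BGB-283 alone and control, which is labelled as having no treatment. Each was taken at the label days D4 and D11, with 3 libraries per treatment and day, except control at D11 with 2, for 23 libraries in 8 groups. Trametinib inhibits the kinase MEK, and BGB-283 inhibits RAF kinases and the epidermal growth factor receptor. All groups share the 1 tumour line, which the labels give as the tissue. The labels state neither the event from which the days are counted nor the animal behind each library, and a p-value here covers only the spread between these libraries. In such bulk RNA, a higher count can come from more cells of a clone or from more receptor RNA per cell, and these cannot be told apart.

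TRB counts per library ran from 151123 to 320122 in combination, from 58914 to 193502 in trametinib, from 65490 to 222964 in BGB-283 and from 32480 to 186514 in control libraries. The number of short clonotypes followed this depth only in part. It was 178 to 734 per combination, 91 to 331 per trametinib, 54 to 198 per BGB-283 and 32 to 122 per control library. BGB-283 libraries averaged 142423 TRB counts and 147.5 short clonotypes, and trametinib libraries 124076 and 203.8. Shares within a library are therefore used below. The smallest count listed is 3, so a clonotype without a value is given as listed at 0.

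The short loops the results turn on are of 2 kinds. The first 8 are those found in most libraries, with ties taken by total counts.
TRBV5 TRBJ1-1: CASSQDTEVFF
TRBV5 TRBJ2-7: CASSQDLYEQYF
TRBV12-1 TRBJ2-7: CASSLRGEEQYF
TRBV4 TRBJ2-3: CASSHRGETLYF
TRBV19 TRBJ2-7: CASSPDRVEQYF
TRBV29 TRBJ2-1: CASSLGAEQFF
TRBV16 TRBJ2-7: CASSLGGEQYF
TRBV29 TRBJ1-1: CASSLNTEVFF

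The other 8 held the largest share of TRB counts in any library. TRBV12-1 TRBJ2-7 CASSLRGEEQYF belongs to both sets, and the other 7 are shown here.
TRBV12-1 TRBJ2-7: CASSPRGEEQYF
TRBV19 TRBJ1-1: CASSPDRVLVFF
TRBV16 TRBJ2-7: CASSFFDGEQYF
TRBV12-2 TRBJ2-4: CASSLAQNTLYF
TRBV23 TRBJ2-7: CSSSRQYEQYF
TRBV12-2 TRBJ2-7: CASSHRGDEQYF
TRBV12-1 TRBJ2-3: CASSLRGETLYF

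Most short loops sat just inside the length limit. There were 3389 clonotypes of 12 residues, 1266 of 11 and 291 of 10. The 90 clonotypes of 9 residues or fewer comprised 56 of 9 residues, 20 of 8, 9 of 7, 4 of 6 and 1 of 5, and together they held 1.17% of the short counts. Loops of 12 residues made up 9.66% of all TRB clonotypes and 13.2% of all TRB counts. Just outside the limit, loops of 13 residues made up 20.1% of clonotypes and 29.5% of counts. Of the short clonotypes, 98.4% ended in phenylalanine, the J residue that closes a functional loop, against 98.7% of the longer ones.

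**Figure D1:**
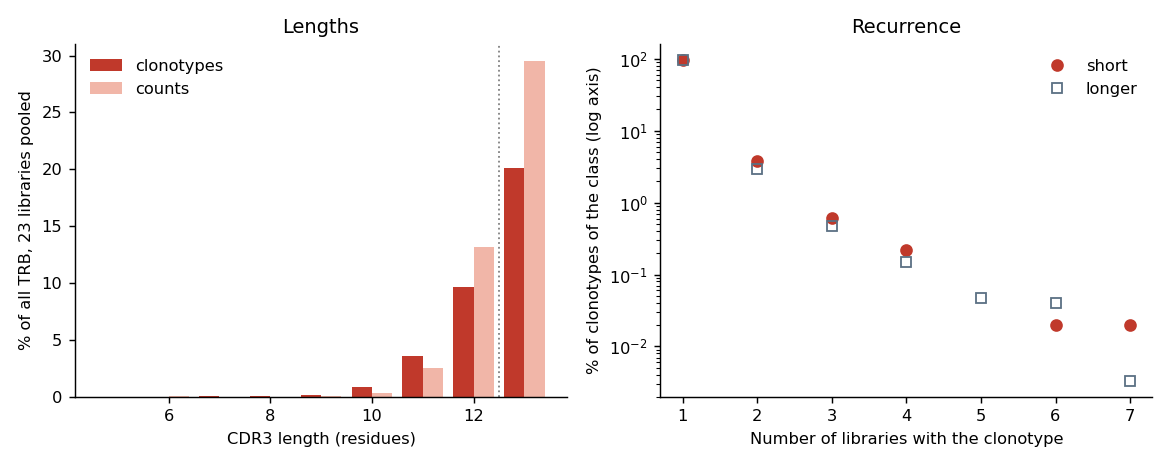
Left, share of all TRB clonotypes and of all TRB counts at each CDR3 length from 5 to 13 residues, 23 libraries pooled, with a dotted line at the 12-residue limit. Right, share of short and of longer clonotypes by the number of libraries that hold them, on a log axis. Loops of 12 residues hold 13.2% of counts and 9.66% of clonotypes, and 95.4% of short and 96.3% of longer clonotypes were in 1 library.

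The first question was whether the drugs changed how much of the TRB repertoire had short loops. Short loops made up 12% to 18% of clonotypes in every treatment. In combination libraries the share ran from 14.0% over a median of 14.5% to 16.8%, in trametinib libraries from 12.01% over 14.5% to 15.9%, and in BGB-283 libraries from 12.6% over 14.2% to 17.9%. Control libraries had 15.5%, 12.4% and 17.8% at D4 and 13.2% and 12.1% at D11. The ranges of all 4 treatments overlapped. Means were 14.8% ± 1.03 in combination libraries, 14.1% ± 1.52 in trametinib libraries and 14.4% ± 1.91 in BGB-283 libraries (SD, n = 6 each), and 14.2% ± 2.40 in control libraries (SD, n = 5).

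No treatment difference in this share passed the exact two-sided permutation test within days. Averaged over days, combination was 0.80 percentage points above control, trametinib 0.14 and BGB-283 0.42, and combination was 0.66 above trametinib and 0.38 above BGB-283. All these had an adjusted p of 0.995 by the exact permutation test over 6 comparisons. The smallest unadjusted p the design allows for a treatment comparison is 0.005. The D11 libraries averaged 14.5% ± 1.91 (SD, n = 11) and the D4 libraries 14.3% ± 1.44 (SD, n = 12), and their difference within treatments of -0.0057 points had an adjusted p of 0.995 in the same permutation test. With the limit at 11 residues instead of 12, combination lay 0.97 points above BGB-283 with an adjusted p of 0.03 in the exact permutation test. Over all alternatives to this comparison the adjusted p ran from 0.03 to 0.995.

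With all clonotypes counted, the sign of the drugs' difference from control was not the same on the 2 days. At D11 the share minus that of control was 2.73 points for combination, 1.70 for trametinib and 2.08 for BGB-283. At D4 it was -1.13 points for combination, -1.41 for trametinib and -1.24 for BGB-283. The D11 effect minus the D4 effect had exact permutation p-values of 0.07, 0.195 and 0.24 in the same order, with adjusted values of 0.35, 0.4 and 0.4, so no difference between days passed the test. All 3 rest on the same 5 control libraries.

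In a comparison added after the data were seen, near copies of large clones were left out. They added to the number of short clonotypes in some libraries. A satellite is a clonotype 1 substitution away from a clonotype of the same V segment and length that had at least 100 times its counts in that library. Satellites were 284 of the 5332 short entries counted per library. They made up 23.6% of short clonotypes in the combination D11 replicate 3 library, 23.7% in the BGB-283 D11 replicate 3 library and 28.7% in the control D4 replicate 3 library, against 0% to 10% in the other 20. The same 3 libraries had the highest shares of short clonotypes. Among their longer clonotypes satellites made up 8.82%, 12.5% and 9.75% in that order. Over all libraries satellites averaged 5.63% ± 8.38 of short and 5.66% ± 3.22 of longer clonotypes (SD, n = 23). Without satellites the mean share of short clonotypes was 15.0% ± 0.501 in combination libraries at D11 and 14.4% ± 0.645 in control libraries at D4 (SD, n = 3 each), and the range over all 23 libraries narrowed to between 12.2% and 15.96%. Without them the combination minus BGB-283 difference turned to -0.03 points, with an adjusted p of 0.95 in the exact permutation test.

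**Figure D2:**
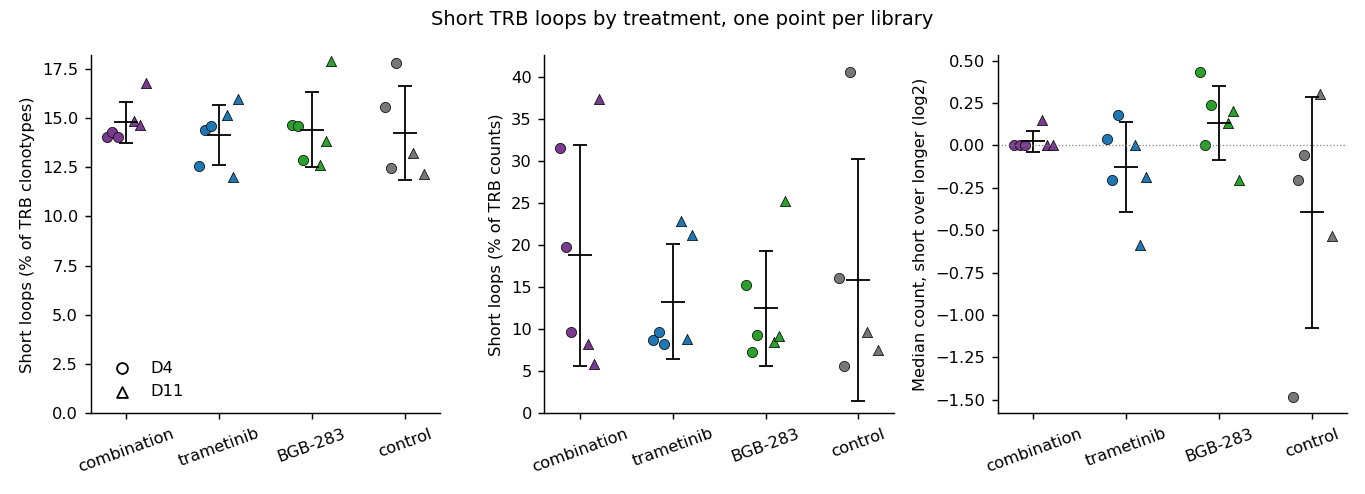
Share of TRB clonotypes that are short (left), share of TRB counts in short clonotypes (middle) and log2 ratio of the median count of short over longer clonotypes (right), 1 point per library, circles for D4 and triangles for D11, with mean ± SD per treatment. Clonotype shares lie between 12.01% and 17.9% in all treatments, while count shares spread from 5.59% to 40.6%.

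The share of TRB counts held by short loops varied far more between libraries than their share of clonotypes. It ran from 5.91% over a median of 14.8% to 37.4% in combination, from 8.27% over 9.25% to 22.8% in trametinib and from 7.28% over 9.29% to 25.3% in BGB-283 libraries. Control libraries had 16.1%, 5.59% and 40.6% at D4 and 9.70% and 7.50% at D11. Both the lowest and the highest value were thus from control libraries at D4. Means were 18.8% ± 13.2 in combination libraries, 13.3% ± 6.81 in trametinib libraries and 12.5% ± 6.86 in BGB-283 libraries (SD, n = 6 each), and 15.9% ± 14.4 in control libraries (SD, n = 5). The 6 comparisons had adjusted p-values of 0.89 by exact permutation, with differences from control of 4.09 points for combination, -1.41 for trametinib and -2.18 for BGB-283. Combination lay 5.50 points above trametinib and 6.27 above BGB-283, and D11 minus D4 was -0.73.

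Single libraries set the direction of these differences. Without the control D4 replicate 3 library, trametinib lay 3.55 points and BGB-283 2.78 points above control, and the combination difference was 9.05 points. Without the combination D11 replicate 3 library the combination difference was -0.96 points. None of these passed the exact permutation test, with adjusted p-values of 0.626 without the control library and 0.92 without the combination library.

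The libraries with a high share each held 1 or a few large short clones. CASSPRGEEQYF on TRBV12-1 and TRBJ2-7 alone took 30.8% of TRB counts in the control D4 replicate 3 library, with 57511 counts. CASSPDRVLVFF on TRBV19 and TRBJ1-1 took 24.1% in the combination D11 replicate 3 library, where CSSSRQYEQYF on TRBV23 and TRBJ2-7 took another 8.82%. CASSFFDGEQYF on TRBV16 and TRBJ2-7 took 15.0% and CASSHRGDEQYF on TRBV12-2 and TRBJ2-7 took 8.47% in the combination D4 replicate 1 library. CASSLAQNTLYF on TRBV12-2 and TRBJ2-4 took 9.30% in the control D4 replicate 1 library.

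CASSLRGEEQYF took 8.38% in the combination D4 replicate 2 library, and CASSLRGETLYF took 7.03% in the trametinib D11 replicate 3 library. Each was the largest TRB clonotype of its library. The largest TRB clonotype was a short one in 5 of 23 libraries, namely combination D4 replicates 1 and 2, combination D11 replicate 3, trametinib D11 replicate 3 and control D4 replicate 3. In the BGB-283 libraries the largest short clonotype ranked between 4 and 15.

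With the largest short clonotype of each library left out, short loops held between 5.49% and 19.4% of the remaining counts in combination libraries. The same range was 7.01% to 19.5% in trametinib, 5.85% to 20.3% in BGB-283 and 4.17% to 14.1% in control libraries. Over all libraries, 35 short clonotypes (0.695%) reached 1% of TRB counts in at least 1 library, against 221 longer clonotypes (0.736%). Those 35 held 56.8% of all short counts.

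**Figure D3:**
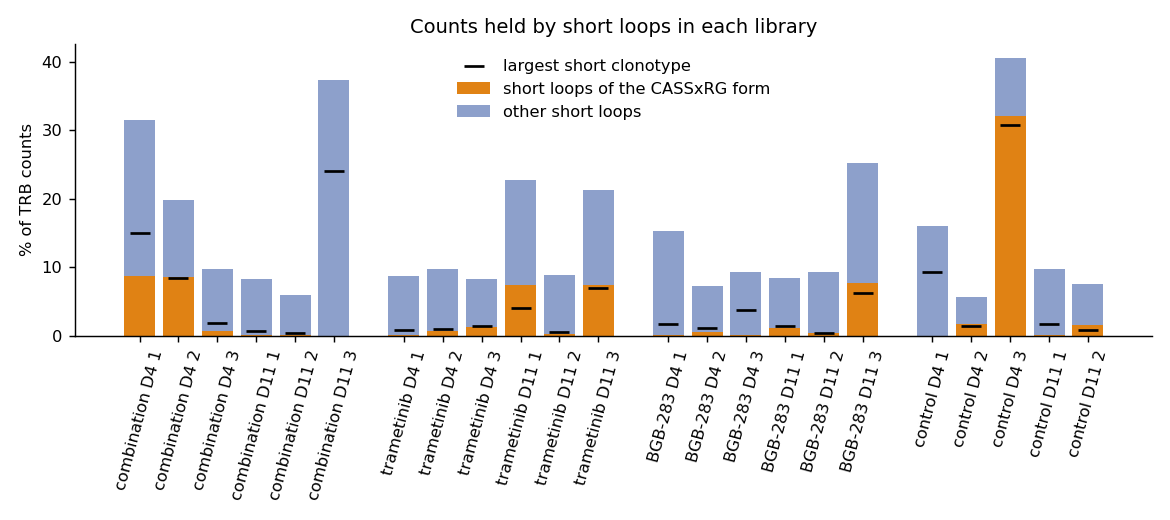
Percent of TRB counts held by short loops in each library, split into loops of the form CASSxRG and other short loops, with a dash at the share of the largest short clonotype. In the control D4 replicate 3 library the CASSxRG loops held 32.1% of TRB counts, and in the combination D11 replicate 3 library they were listed at 0.

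Apart from the few large clones, the median count of short clonotypes was close to that of longer ones, but both were low. Over all entries above 0 the median was 20 counts in each class, and 20 counts were taken as a single estimated molecule. Library medians ran from 9 to 46 counts in short and from 9 to 56 in longer clonotypes. Medians this low leave little room to show a difference in clone size. The log2 ratio of the median count of short over longer clonotypes averaged -0.08 ± 0.39 (SD, n = 23), above 0 in 8 libraries, below 0 in 8 and at 0 in 7. A two-sided permutation test by sign flips gave p = 0.403. In combination libraries it ran from 0 over a median of 0 to 0.15, in trametinib libraries from -0.58 over -0.09 to 0.18, and in BGB-283 libraries from -0.20 over 0.17 to 0.44. Control libraries had -1.49, -0.20 and -0.06 at D4 and 0.30 and -0.54 at D11. The groups overlapped.

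The size ratio was higher than in control by 0.37 in combination libraries, 0.22 in trametinib libraries and 0.48 in BGB-283 libraries on the log2 scale, and none passed the exact permutation test, with adjusted p-values of 0.405, 0.63 and 0.405 in that order. The 2 control libraries with the fewest TRB counts decided these values. Without control D11 replicate 1, with 32480 counts, the differences were 0.58 for combination and 0.69 for BGB-283. Only 1 control library was then left at D11, so these are given as effect sizes without a p-value. Without control D4 replicate 1, with 34364 counts, they were 0.15 and 0.26, with adjusted p-values of 0.552 and 0.54 in the exact permutation test.

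Short and longer loops used the J segments in different shares. TRBJ2-7 was the J segment of 39.7% ± 5.05 of short clonotypes and of 16.9% ± 1.90 of longer clonotypes (SD, n = 23). Its share ran from 25.9% over a median of 39.9% to 48.4% of short clonotypes and from 10.6% over 17.2% to 19.7% of longer clonotypes, so the ranges did not overlap. TRBJ1-1 followed, at 14.9% ± 4.23 of short and 8.12% ± 1.33 of longer clonotypes (SD, n = 23), with ranges that overlapped. Both were higher among short clonotypes in 23 of 23 libraries. Their adjusted p was 1.71e-05 in a two-sided sign-flip permutation test over the 12 TRBJ segments, with the unadjusted p at the smallest value that 100000 flips can give. Loop length counts the residues that the V and J segments give, so segment use is not independent of the choice of members. How much of the differences in J use, and in V use below, follows from that choice was not tested.

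The test called 9 of the 12 TRBJ segments (75%), these 2 higher and 7 lower. TRBJ2-1 fell furthest, to 9.03% ± 3.35 of short clonotypes against 15.1% ± 1.58 of longer ones (SD, n = 23). TRBJ2-3 stood at 5.55% of short against 10.4% of longer clonotypes, TRBJ2-5 at 8.15% against 12.4%, TRBJ1-4 at 3.39% against 7.53%, TRBJ2-2 at 1.86% against 5.76% and TRBJ1-3 at 2.42% against 4.82%. TRBJ1-6 was the last of the 7, at 1.17% against 3.22%. TRBJ1-4 was lower among short clonotypes in 23 of 23 libraries, and the other 6 in 20 to 22 libraries. TRBJ1-5, TRBJ1-2 and TRBJ2-4 did not pass. Seen from the segment, 27.6% of all TRBJ2-7 and 25.5% of all TRBJ1-1 clonotypes were short, against 5.68% for TRBJ2-2, with 14.4% over all TRB clonotypes. TRBJ2-5 turned with the length limit: at 13 residues it was higher among short clonotypes by 2.14 points with an adjusted p of 0.00359 by sign-flip permutation, against -4.28 points at 12 residues, and at 11 residues it did not pass. TRBJ1-3 did not pass at 11 residues either. With clonotypes weighted by counts, 6 of the 9 remained in the same direction, without TRBJ2-3, TRBJ1-4 and TRBJ1-3.

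The ends that the J segments give to the loop differ in length, and loop length counts them. The end of each J was read from the deposited CDR3s, extended for as long as the most common next residue was in at least 50% of the matching sequences. It is not a germline sequence from an annotation. They are shown because their lengths differ between segments.
TRBJ2-7: YEQYF
TRBJ1-1: NTEVFF
TRBJ2-1: YAEQFF
TRBJ2-3: AETLYF
TRBJ1-4: SNERLFF
TRBJ2-2: NTGQLYF
TRBJ1-3: SGNTLYF
TRBJ1-6: YNSPLYF

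TRBJ2-7 was the only segment with an end of 5 residues. TRBJ1-4, TRBJ2-2, TRBJ1-3 and TRBJ1-6, the 4 with an end of 7 residues, were all lower among short loops. The 7 segments with an end of 6 residues comprised TRBJ1-1, which was higher, TRBJ2-1, TRBJ2-3 and TRBJ2-5, which were lower, and the 3 that did not pass. By genomic cluster the sums of both classes lay close together. The 6 TRBJ1 segments together took 28.8% ± 5.53 of short and 30.7% ± 1.95 of longer clonotypes, and the 6 TRBJ2 segments took 71.2% ± 5.53 of short and 69.3% ± 1.95 of longer clonotypes (SD, n = 23). The median difference was -1.08 points over the TRBJ1 and -4.09 points over the TRBJ2 segments, against -2.23 over all 12.

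**Figure D4:**
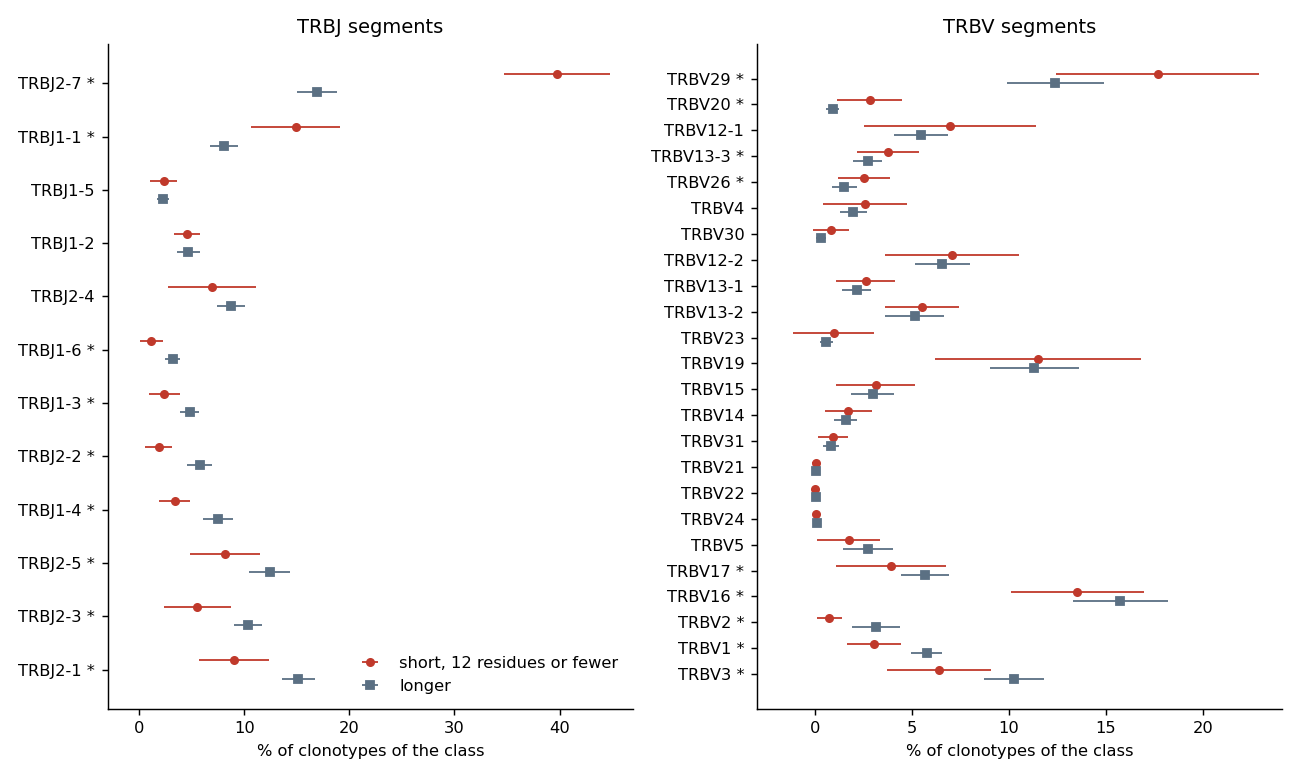
Mean share of short (circles) and longer (squares) clonotypes by TRBJ segment (left) and TRBV segment (right), in percent of the clonotypes of the class, with SD over 23 libraries. Stars mark segments past the sign-flip permutation test after adjustment, 9 of 12 TRBJ and 9 of 24 TRBV segments, and TRBJ2-7 stands apart at 39.7% of short against 16.9% of longer clonotypes.

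V segments differed less than J segments. The test called 9 of 24 TRBV segments (37.5%), 4 higher and 5 lower among short clonotypes. TRBV29 stood highest, at 17.7% ± 5.24 of short and 12.4% ± 2.51 of longer clonotypes (SD, n = 23), higher in 21 libraries. TRBV20 was at 2.82% ± 1.66 of short and 0.923% ± 0.332 of longer clonotypes (SD, n = 23), also higher in 21. Both had an adjusted p of 9.6e-05 by sign-flip permutation. The deposited TRBV20 loops mostly open with CGAR and not with the usual CASS, and 32.2% of all TRBV20 clonotypes were short.

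TRBV13-3 rose to 3.76% of short against 2.71% of longer clonotypes, and TRBV26 to 2.52% against 1.52%, with adjusted p-values of 0.0265 and 0.0048 by sign-flip permutation, each higher in 17 of 23 libraries. The TRBV13 family of 3 segments summed to 11.9% ± 3.35 of short and 9.999% ± 2.20 of longer clonotypes (SD, n = 23), with TRBV13-3 its only member past the test. The family's median difference was 0.47 points, against 0.17 over all TRBV segments.

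On the low side, TRBV3, TRBV1 and TRBV2 were lower among short clonotypes in 23 of 23 libraries. TRBV3 was at 6.40% ± 2.70 of short and 10.3% ± 1.56 of longer clonotypes, TRBV1 at 3.05% ± 1.38 and 5.76% ± 0.795, and TRBV2 at 0.742% ± 0.648 and 3.16% ± 1.24 (SD, n = 23). Each had an adjusted p of 8e-05 by sign-flip permutation. For TRBV1 the short range of 0% to 5.13% and the longer range of 4.29% to 7.21% overlapped slightly, and 4.73% of all TRBV2 clonotypes were short. TRBV16 and TRBV17 fell to 13.5% and 3.93% of short clonotypes, against 15.8% and 5.70% of longer ones, with adjusted p-values of 0.0242 and 0.00957 by sign-flip permutation. With clonotypes weighted by their counts, 3 of the 9 remained, namely TRBV20, TRBV2 and TRBV3, each in the same direction. The TRBV16 call was also lost with the limit at 11 or at 13 residues, with counts under 20 set to 0 and without satellites. TRBV13-3 and TRBV26 did not pass with the limit at 11 residues.

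The length that defines short loops is the sum of 3 stretches, so fewer residues in them follow from the choice of members, and their lengths are given as a description. Each loop was split into residues that match the common start of its V, residues that match the common end of its J, and the middle between them. Short loops averaged 3.06 ± 0.236 middle residues and longer loops 4.80 ± 0.0749 (SD, n = 23). They kept 3.86 residues of the V start against 4.08 in longer loops, and 4.67 residues of the J end against 5.50. At most 1 middle residue was left in 9.13% of short clonotypes, against 0.0766% of longer ones.

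The middle of short loops also had another composition. Of 20 amino acids, 14 (70%) passed the sign-flip permutation test, 9 higher and 5 lower. The middle is what matched neither the common V start nor the common J end, so it can hold residues from either segment. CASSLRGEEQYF, for example, had the middle LRGE on TRBV12-1 and RGE on TRBV12-2. How much of the shift in composition follows from the choice by length or from the difference in J use was not tested. Arginine, a positively charged residue, made up 11.2% ± 1.79 of middle residues in short and 8.49% ± 0.584 in longer loops (SD, n = 23), higher in 21 libraries with an adjusted p of 5e-05 by sign-flip permutation. Glutamate was at 4.20% in short against 2.79% in longer loops, phenylalanine at 3.04% against 1.92%, glutamine at 4.21% against 3.44%, tyrosine at 1.87% against 1.36% and lysine at 1.39% against 0.901%. Histidine, methionine and cysteine were higher too, by 0.43, 0.22 and 0.22 points.

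Glycine, which the D segments encode often, fell furthest, to 22.1% ± 2.48 in short against 25.9% ± 0.944 in longer loops (SD, n = 23). It was lower in 22 of 23 libraries with an adjusted p of 5e-05 by sign-flip permutation. Tryptophan was at 2.49% in short against 4.14% in longer loops and alanine at 3.90% against 5.46%, each lower in 22 libraries. Serine was at 6.71% against 7.74% and asparagine at 2.56% against 3.46%.

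The number of calls depended on small clonotypes and near copies. With counts under 20 set to 0, 7 amino acids passed, namely arginine, glutamate, phenylalanine, glycine, tryptophan, alanine and asparagine, all in the same direction. Without satellites 9 passed, these 7 with glutamine and lysine. With clonotypes weighted by counts, 2 passed, arginine higher and serine lower. With the limit at 11 residues asparagine, glutamine, histidine, methionine and cysteine did not pass, and with the limit at 13 alanine, tyrosine and methionine did not.

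**Figure D5:**
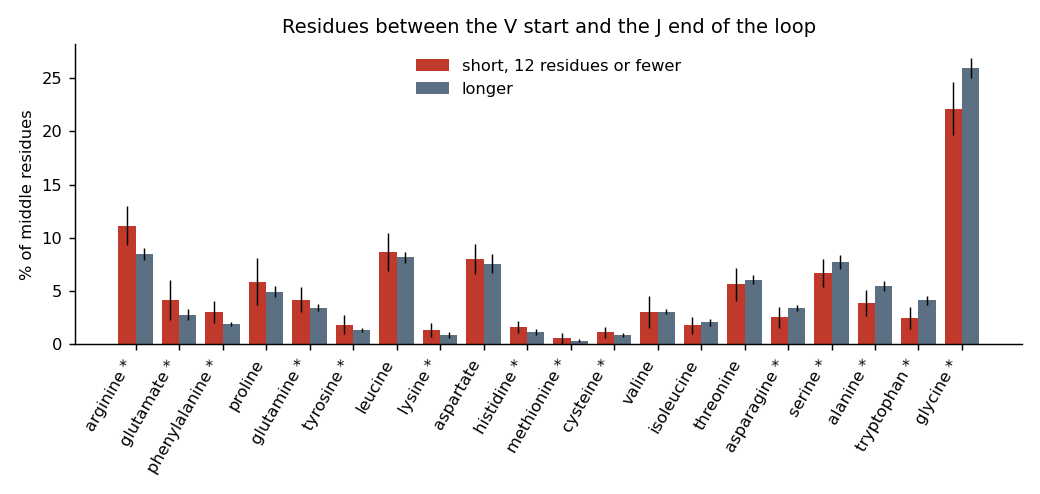
Share of each amino acid among the middle residues of short and of longer loops, in percent, as mean with SD over 23 libraries, ordered from the largest excess in short loops to the largest deficit. Stars mark the 14 of 20 amino acids past the sign-flip permutation test, led by arginine at 11.2% against 8.49% and ending with glycine at 22.1% against 25.9%.

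Loops of the form CASSxRG, where x is any residue, recur among the large short clones listed above. This form was chosen after the largest clones were seen, so its values are a description with no test. It was found in 186 short clonotypes, which were 3.69% of short clonotypes and held 26.7% of short counts. Among longer loops it was found in 551 clonotypes, which were 1.83% of longer clonotypes and held 1.00% of longer counts. Of the 35 short clonotypes that reached 1% of a library, 8 had this form, against 3 of the 221 longer ones.

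The form with glutamate next, CASSxRGE, counted 82 short and 12 longer clonotypes, and held 19.6% of short and 0.0288% of longer counts. Of the 82, 45 were not a satellite in at least 1 library. The glutamate can belong to the J end, as in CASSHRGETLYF, whose middle was HRG. This form is therefore not independent of loop length, and how much of the contrast follows from the choice of members was not tested. The residue before RG was leucine in 29.6% of the 186 clonotypes, histidine in 14.5% and proline in 13.4%. TRBV12-1 was the V segment of 30.6% of them, against 6.51% of all short clonotypes, and TRBJ2-7 the J segment of 57.0%, against 39.1%. These shares count satellites, and a satellite has the V segment of its larger clonotype. Control D4 replicate 3, whose largest short clonotype was on TRBV12-1, had 19 of these satellites. The part of the V and J shares that comes from satellites was not tested.

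CASSxRG loops were present in 22 of 23 libraries but large in few. Their share of TRB counts was 8.76%, 8.56% and 0.661% in combination libraries at D4 and 0.0993%, 0.132% and 0% at D11. It was 0.122%, 0.713% and 1.26% in trametinib libraries at D4 and 7.38%, 0.253% and 7.37% at D11. It was 0.0866%, 0.577% and 0.135% in BGB-283 libraries at D4 and 1.05%, 0.372% and 7.65% at D11. Control libraries had 0.0116%, 1.72% and 32.1% at D4 and 0.0616% and 1.61% at D11.

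At least 1 library of each treatment was thus above 7% and at least 1 below 0.2%. The control D4 replicate 3 library held 39.6% of all CASSxRG counts, and without it the form held 18.6% of short counts. In that library 19 of its 24 CASSxRG clonotypes were satellites. Over all libraries 65 of the 206 short CASSxRG entries were satellites, and 125 of the 186 clonotypes were not a satellite in at least 1 library.

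Several of these loops were found in more than 1 library. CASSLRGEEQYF on TRBV12-1 had 22944 counts in combination D4 replicate 2, 1772 in trametinib D4 replicate 3, 650 in BGB-283 D11 replicate 1 and 5 in control D4 replicate 3. The last of these is a satellite of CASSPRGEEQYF. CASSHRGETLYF on TRBV4 had 11 counts in combination D11 replicate 2, 784 in trametinib D11 replicate 1, and 1398 and 1593 in control D4 replicates 2 and 3. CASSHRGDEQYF on TRBV12-2 had 19887 counts in combination D4 replicate 1, 4021 in trametinib D11 replicate 1 and 77 in BGB-283 D4 replicate 2. These loops were thus found across treatments.

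Few clonotypes of either class recurred between libraries. Of the short clonotypes, 234 (4.65%) were in 2 or more libraries, against 1110 (3.70%) of the longer ones, and 13 (0.258%) were in 4 or more, against 80 (0.266%). Of those 234, 177 were found in more than 1 treatment and 4 in all 4 treatments. Within a library, the share of short clonotypes also found elsewhere minus the same share of longer ones averaged 0.78 ± 4.67 points (SD, n = 23), above 0 in 16 libraries and below 0 in 7. It averaged 0.88 ± 2.49 points in combination libraries, 5.10 ± 3.21 in trametinib and 1.03 ± 1.38 in BGB-283 libraries (SD, n = 6 each), and -4.83 ± 5.44 in control libraries (SD, n = 5), the ones with the fewest clonotypes. These shares are given without a test, since libraries share the clonotypes counted.

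Recurrent short loops had short middles. Those in 2 or more libraries averaged 2.36 middle residues, against 3.09 for short clonotypes in 1 library. The same averages among longer loops were 4.11 and 4.83. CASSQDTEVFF, with 1 middle residue, was found in 7 libraries, the most of any short clonotype. Its counts were 29 and 86 in combination D4 replicates 1 and 2, 11 in combination D11 replicate 2, 124 in trametinib D11 replicate 1, 169 and 37 in BGB-283 D4 replicates 1 and 3, and 121 in BGB-283 D11 replicate 3. It was listed at 0 in the 5 control libraries, and its share never passed 0.185% of TRB counts.

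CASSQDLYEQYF, with 2 middle residues, was found in 6 libraries. It had 4 and 28 counts in combination D4 replicates 2 and 3, 23 in trametinib D4 replicate 2, 212 and 458 in BGB-283 D11 replicates 2 and 3, and 78 in control D4 replicate 1. Both loops use TRBV5. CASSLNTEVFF on TRBV29, with 1 middle residue, had 10 counts in combination D4 replicate 2, 9 in trametinib D4 replicate 3, 53 in BGB-283 D4 replicate 2 and 100 in control D4 replicate 2.

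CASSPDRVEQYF on TRBV19, with 4 middle residues, was the only 1 of the 8 most recurrent loops outside the CASSxRG form to reach 1% of a library, at 1.48% in BGB-283 D4 replicate 1. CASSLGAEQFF and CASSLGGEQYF were in 4 libraries each, with at most 0.502% and 0.108% of TRB counts. In 5 of the 234 recurrent short clonotypes the highest library had at least 100 times the counts of the next. Among them is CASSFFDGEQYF, with 35220 counts in combination D4 replicate 1 and 3 in trametinib D4 replicate 3, and whether such low counts are carried over between libraries was not tested.

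A CDR3 listed with several V segments was more frequent among short than among longer sequences, though uncommon in both. Of 4447 distinct short CDR3 sequences, 410 (9.22%) were listed with 2 or more TRBV segments, against 1507 of 27977 longer sequences (5.39%). The most for a short sequence was 6, as for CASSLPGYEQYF, listed with TRBV12-1, TRBV12-2, TRBV15, TRBV16, TRBV29 and TRBV3 over 6 libraries. Many TRBV segments share the start CASS, and how well the caller told them apart is not given in the sources used here.

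No V or J segment of short loops passed edgeR's test between treatments or days. Counts of each TRBV and TRBJ segment, split into short and longer loops, were tested with edgeR's quasi-likelihood test with Benjamini-Hochberg adjustment, which kept 69 features, 33 of them short. None was called for combination, trametinib or BGB-283 against control, for combination against trametinib or BGB-283, or for D11 against D4 (0% in each). At an unadjusted p under 0.05 there were 6, 5, 2, 3, 2 and 3 of the 33 short features in those 6 comparisons, and 8, 10, 7, 4, 8 and 14 of all 69 features. The lowest adjusted p among short features was 0.105, for D11 against D4. The biological coefficient of variation was 1.11 for the TRBV and 0.866 for the TRBJ table, so the counts of a feature varied widely between libraries of a group. The median log2 fold change of short features against control was 0.51 in combination libraries, 0.65 in trametinib libraries and 0.55 in BGB-283 libraries, against 0.27, 0.37 and 0.24 over all features.

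Short TRBV5 loops, named after their values were seen, were the short feature with the lowest unadjusted p for trametinib and BGB-283 against control. For combination against control short TRBV13-1 had a lower one, at the same adjusted p of 0.257 in edgeR's test. Short TRBV5 loops were listed in 6 of 6 combination, 5 of 6 trametinib, 6 of 6 BGB-283 and 1 of 5 control libraries. Their share of TRB counts ran from 0.0483% over a median of 0.0760% to 0.369% in combination, from 0% over 0.167% to 0.320% in trametinib and from 0.0188% over 0.485% to 2.01% in BGB-283 libraries. Control D4 replicate 1 had 0.227%, from the single clonotype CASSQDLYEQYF, and the other 4 control libraries were listed at 0. The ranges overlapped through that library and, for trametinib, also through its 1 library listed at 0.

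The adjusted p of short TRBV5 in edgeR's quasi-likelihood test was 0.257 for combination, 0.2496 for trametinib and 0.156 for BGB-283 against control. Without control D4 replicate 1 it was 0.0098, 0.00641 and 0.00137 in the same order in edgeR's test, and short TRBV26 passed too, with 0.0198, 0.0135 and 0.0293. That library was the only control library at D4 with short TRBV26 or TRBV5 loops, so the control group at D4 was then all at 0 for both. The D11 control libraries had 0.0985% and 0.316% in short TRBV26 loops. The range was 0.0306% to 0.705% in combination, 0% to 1.18% in trametinib and 0.0502% to 1.25% in BGB-283 libraries. DESeq2 called short TRBV5 in all 3 comparisons with all libraries, with 1 other short segment in each, TRBV13-1 for combination and for trametinib and TRBV3 for BGB-283. For D11 against D4, where edgeR's test called none, DESeq2 called 3 short segments with a negative log2 fold change. In DESeq2 TRBV5 had -5.26 with an adjusted p of 4.1e-06, TRBV31 -2.90 with 0.0444 and TRBJ2-4 -1.71 with 0.0103. Short TRBV5 was not lower at D11 in every treatment. Its share ran from 0% to 0.1999% at D4 and from 0.134% to 0.320% at D11 in trametinib libraries. In combination libraries it ran from 0.0895% to 0.369% at D4 and from 0.0483% to 0.0624% at D11. BGB-283 ranges overlapped, and the D11 control libraries were listed at 0. How far those values at 0 set the TRBV5 fold change was not tested. Longer TRBV5 loops were listed in 5 of 5 control libraries, at 0.294% to 15.6% of TRB counts. Control libraries had the fewest short clonotypes of any treatment, 67 on average against 482 in combination libraries, and the part of this in the missing TRBV5 loops was not tested.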

How the data were processed

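Per the labels' protocols, QIAGEN and Ambion kits gave total RNA, from which the QIAseq Immune Repertoire RNA kit made the libraries. The authors deposited 1 table of whole-number counts per CDR3 amino acid sequence with its chain, V and J, and the counts were not scaled between libraries. Only its TRB entries were used. GRCh38, a human build, stands in the submitters' processing notes although the samples are mouse, so no coordinates are given. No source used here names the aligner or the clonotype caller.

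Of 35571 TRB entries, 182 with an unresolved residue and 321 not starting with C were left out, together 0.18% of TRB counts. All 24 TRBV and 12 TRBJ names matched mouse RefSeq symbols. Members, lists and tests were chosen with earlier results of these data known.

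Shares and sizes were compared over libraries by exact two-sided permutation within days (within treatments for D11 against D4), adjusted by Benjamini-Hochberg over 6 comparisons. V, J and amino acid use of short and longer loops were compared within library by 100000 sign flips. Segment counts were tested with edgeR 4.0.16 (R 4.3.3, filterByExpr, TRB totals as library sizes), with DESeq2 1.42.0 as an alternative. Named clonotypes are the 8 in most libraries and the 8 with the largest share, and named segments and amino acids are up to 6 past the threshold of 0.05 in each direction. TRBJ1-6, histidine, methionine and cysteine fall outside this rule and were named after their values were seen. Scripts were tested on simulated data. Errors are SDs over libraries, since counts are not independent molecules.

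Libraries of equal replicate number did not deviate together. Every equal-number correlation was above 0.1 in 3 of 28 pairs of groups, and the mean was 0.03, so replicates were not paired.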

Additional observations from a re-analysis of the deposited data

Results flagged for a closer look

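In the combination group of 6 libraries, D11 replicate 3 stood far from the others in its share of short clonotypes, at 16.8%, while the other 5 ran from 14.0% to 14.8%. Satellites made up 23.6% of its short and 8.82% of its longer clonotypes, and without them its share of short clonotypes was 14.4%. In the same group, D11 replicate 1 stood apart in the log2 ratio of the median count of short over longer clonotypes, at 0.15, while the other 5 libraries were at 0. Chance alone marks about 1 in 20 groups in this way where values are not tied, and 12 groups of 5 or 6 libraries were examined. In the 5 libraries at 0 the short and longer medians were the same whole number. In D11 replicate 1 the medians were 20 and 18 counts. The rate of 1 in 20 therefore does not apply to this size ratio.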

How the results depend on the processing

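Over all results and alternatives, 589 values kept their direction and side of the threshold or their size, 73 reversed, 13 moved and 3 came past the threshold. Among these 3 are the size differences of combination and of BGB-283 from control without control D11 replicate 1, which leaves 1 control library at D11. The reversals were of differences between groups, or of clone size over all libraries, that did not pass the test, and their cause was not tested. Apart from them, TRBJ2-5 use turned with the limit at 13 residues, to 2.14 points higher among short loops. Differences below are in percentage points of clonotypes or of counts, or in log2 for clone size. With the limit at 11 residues, the clonotype differences were 0.97 for combination against BGB-283 (adjusted p = 0.03, exact permutation) and 0.26 for D11 against D4. The count differences were then 1.15 for trametinib and 0.56 for BGB-283 against control and 1.13 for D11 against D4, the size difference -0.12 for combination against trametinib, and the size over all libraries 0.051. With the limit at 13, trametinib and BGB-283 against control gave -0.84 and -0.19 for clonotypes and 3.78 and 4.32 for counts. The size difference of trametinib against control was then -0.01 (-0.0087), and the size over all libraries 0.056. With loops ending in F only, the size difference of D11 against D4 was -0.01 (-0.0090). With entries not starting with C kept, clonotype differences were -0.02 (-0.0238) for trametinib against control and 0.07 (0.0676) for D11 against D4. With counts under 20 set to 0, D11 against D4 was 0.17 for clonotypes, trametinib against control -0.12 for size, and size over all libraries 0.0033. The CDR3 alone gave 0.03 (0.0253) for clonotypes of D11 against D4, estimated molecules -0.020 for size of trametinib against control, and log2 odds 0.031 for counts of trametinib against control.

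With the largest TRB clonotype of each library left out, count differences were 1.69 for trametinib and 3.45 for BGB-283 against control, -0.51 for combination against trametinib, -2.27 for combination against BGB-283 and 1.09 for D11 against D4. Without CASSxRG loops, an alternative chosen after seeing the data like that without satellites, they were 1.61, 1.75 and 1.29 for trametinib and BGB-283 against control and D11 against D4. Without satellites the clonotype difference of combination against BGB-283 was -0.03 (-0.0318). Replicate numbers do not pair these libraries. With the replicate block, clonotype differences were -0.48 for trametinib and -0.53 for BGB-283 against control and 0.46 for D11 against D4, and count differences -0.84 for combination against control and 2.11 for D11 against D4, and no call changed. Without the 2 control libraries with the fewest counts, size of D11 against D4 was -0.20, and edgeR called 1 short feature each for trametinib and BGB-283 against control, TRBV5. DESeq2 called 2 short features in each comparison with control and 3 for D11 against D4 (TRBV5, TRBV31 and TRBJ2-4). Amino acids past the test numbered 7 with counts under 20 set to 0, 9 without satellites and 2 weighted by counts, and TRBV segments weighted by counts 3.

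Leaving out 1 library at a time, clonotype differences ran from -0.16 to 1.16 for combination against BGB-283, from -0.39 to 0.31 for D11 against D4, from -0.56 to 0.78 for trametinib and from -0.36 to 1.05 for BGB-283 against control. Count differences ran from -0.96 to 9.05 for combination, from -5.20 to 3.55 for trametinib and from -5.97 to 2.78 for BGB-283 against control, and from -3.26 to 1.75 for D11 against D4. Size differences ran from 0.15 to 0.58 for combination, from -0.0031 to 0.43 for trametinib and from 0.26 to 0.69 for BGB-283 against control, and from -0.10 (-0.0951) to 0.12 for D11 against D4. Calls of short features ran from 0 to 2 in the 3 comparisons with control. The control libraries, with 32 to 122 short clonotypes each, limit the precision of every comparison with control.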
